A study of Drosophila melanogaster with 31 samples.

Results

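Ovaries of twister (tst) mutant flies were compared with ovaries of adult wild type flies by poly(A) RNA-seq of total mRNA, which measures transcripts of the whole tissue. The comparison was chosen by the library names and rests on 4 of the 31 libraries of the series, tst mutant 1 and 2 and adult wild type 1 and 2, and libraries with the same number were also compared with each other. Mutant ovaries had less mRNA for chorion and vitelline membrane proteins and for the maternal genes alphaTub67C and pgc. They had more mRNA for several cytochrome P450 enzymes and glutathione transferases, for the stress gene Drat, for lactate dehydrogenase and for muscle proteins. Summed mRNA of muscle markers was also above adult wild type in germline tst RNAi ovaries and in ovaries of newly eclosed wild type flies. The largest rise was that of Rpt6R, a copy of a proteasome subunit gene.

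The mutant flies carried tstMB10212/Df(3R)Exel9013, an insertion allele over a chromosome deficiency. The adult wild type flies carried, in a w[1118] background, the P{w[+mC]} transgenes UAS-Dcr-2.D (insertion 1), which puts Dicer-2 under UAS control, and GAL4-nos.NGT (insertion 40), which puts GAL4 under the nanos promoter, active in the germline. Both were dissected 1 to 3 days after eclosion. Beside them, direct tests are given against germline tst RNAi ovaries of the same age (UAS-Dcr2;nosGAL4>tst RNAi) and against young wild type ovaries taken 0 to 3 hours after eclosion from the genotype of the adult controls. The mutant label lists neither transgene, so the stock, the deficiency and the loss of tst cannot be told apart in the comparison with adult wild type. In all 4 groups the strand label of the processing was not applicable for library 1 and reverse for library 2.

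The tst gene encodes the Ski2 helicase of the Ski complex, which threads mRNA into the cytoplasmic exosome for decay from the 3′ end, also of mRNAs on which ribosomes have stalled. A Drosophila ovary holds strings of egg chambers of rising age, from a germarium with stem cells to late chambers in which follicle cells lay down the vitelline membrane and then the chorion. Nurse cells load the oocyte with maternal mRNAs that act in the egg and early embryo. In whole ovaries, fewer cells of a type and less RNA per cell cannot be told apart, which touches every value below.

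Levels are TPM, transcript shares scaled for length over the 9251 genes of the table, and are given for library 1 and then library 2 of a group. Differences are mutant minus adult wild type means of log2(TPM + 1), a scale that understates the change of genes with low levels. The standard error (SE) is that of a limma fit over 16 total mRNA libraries. Beside the 4 groups above, these are pelo mutant, pelo heterozygote, hfp mutant and hfp heterozygote ovaries, with 2 libraries per group. The spread behind each SE and p of that fit thus came from all 8 groups. A gene rose or fell where the Benjamini-Hochberg adjusted p was under 0.05 among the 8864 genes that reached 1 TPM in at least 2 libraries. The replicate number was a block in a second fit of the 8 libraries of mutant, RNAi, young and adult wild type, because like-numbered libraries deviated together, and "with the block" and "block p" refer to that fit. In another fit the number was a block over all 16 libraries, called the 16-library block. It made far fewer calls, and its counts stand beside those of the block. Tests against RNAi and young wild type ovaries are from the fit without a block unless a block is named. The sources do not say whether libraries came from separate animals, so p values measure only the spread between these libraries, and sequencing depth cannot be read from TPM. The markers vas, osk and nos of the ovary's germline were present in all 4 libraries, with osk at 432 and 1127 TPM in mutants and 1166 and 1519.7 TPM in adult wild type.

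In the mutant, 315 genes rose and 60 fell, 3.55 percent and 0.677 percent of those tested. Each of these 375 genes had both mutant libraries on one side of both wild type libraries, and 357 differed by more than 1 on the log2 scale in both like-numbered pairs. Libraries were apart in this way for 2865 genes with the mutant higher and 2569 with it lower, 32.3 and 29 percent of all genes. With the replicate block, 1616 genes were higher and 1236 lower, 18.6 and 14.2 percent of 8675 genes, and 374 of the 375 genes kept their call. With the 16-library block 526 genes were higher and 120 lower, 5.93 and 1.35 percent. The median difference over all genes was 0.02 and 50.8 percent of genes had a positive difference. Counts for a gene list below are to be read against these shares. With the 4 compared libraries alone 55 genes rose and 27 fell. Under quantile normalization 170 genes rose and 161 fell, so the split between directions depends on the scaling. The counts also rest on single libraries: 48 rose and 4 fell without tst mutant 1, 503 rose and 76 fell without tst mutant 2, 25 rose and 4 fell without adult wild type 1, and 42 rose and 10 fell without adult wild type 2. In the lists of maternal axis, egg activation, early germline, meiotic, Piwi, early follicle cell and heat shock genes no gene passed without tst mutant 1, adult wild type 1 or adult wild type 2. Of the 75 genes named by rule that passed, all had the same direction without any 1 of these libraries, and those still past the threshold numbered 23 when tst mutant 1 was left out, 63 when it was tst mutant 2, 16 for adult wild type 1 and 25 for adult wild type 2. Mutant libraries correlated with each other less than wild type libraries did, with r across genes of 0.931 in the mutant and 0.971 in adult wild type. In the mutant 8376 and 8167 genes reached 1 TPM, against 7493 and 7561 in adult wild type. RNAi ovaries had 8029 and 8003 such genes and young wild type 8134 and 8188, so adult wild type had the fewest of these groups.

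**Figure D1:**
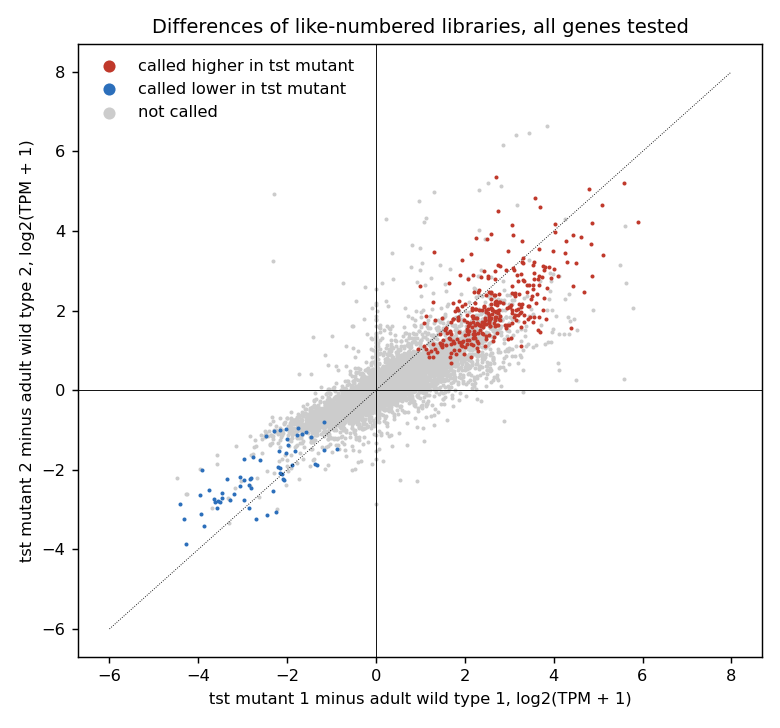
Difference in log2(TPM + 1) between tst mutant 1 and adult wild type 1 (x axis) and between tst mutant 2 and adult wild type 2 (y axis), 1 point per gene tested. The 315 genes called higher (red) and the 60 called lower (blue) lie on the same side of 0 in both pairs; the dotted line marks equal differences.

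The targeted gene was low in the mutant. It had 6.34 and 8.62 TPM in the mutant, against 35.3 and 39.6 TPM in adult wild type, a difference of -2.19 (SE 0.57). Both mutant libraries lay far below both wild type libraries. The adjusted p was 0.0522 in the fit without a block, just short of the threshold, 5.38e-04 with the block and 0.00709 with the 16-library block. Germline tst RNAi ovaries had 6.77 and 11.7 TPM, and the mutant did not differ from them beyond the spread (difference -0.24, SE 0.57, adjusted p 0.974). Of the 15 Ski complex and exosome genes tested, tst included, none passed in limma without the block, 1 (tst) had an unadjusted p under 0.05, and with the block tst was lower and Csl4, Rrp42, Rrp46 and Mtr4 were higher. Of these, tst alone passed with the 16-library block. Csl4, Rrp42 and Rrp46 are exosome subunits and Mtr4 is the helicase of the nuclear exosome. Csl4 had 121 and 106 TPM in the mutant and 79.1 and 64.8 TPM in adult wild type, and its p was 0.00995 with the block and 0.152 with the 16-library block. The median of the list was 0.26.

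Genes beside tst on chromosome arm 3R had lower levels, which passed only in fits with a replicate block. The tst gene lies at 3R:23768399-23772859 of the RefSeq Release 6 table, and the 15 tested genes on either side of it were examined, all but 1 of which are described here. From Rpn9 to Nup98-96, a stretch with 13 described genes that include tst, 12 had negative differences and Lsd-1 alone a positive one. RanBP3, a Ran-binding protein gene, had 54.0 and 46.0 TPM in the mutant and 190.1 and 124 TPM in adult wild type (difference -1.60, SE 0.43, adjusted p 0.0577, block p 0.00127). Hrd3, whose product works in degradation of proteins from the endoplasmic reticulum, had 25.0 and 28.6 TPM in the mutant and 69.8 and 81.3 TPM in adult wild type (block p 9.84e-04). For both genes the mutant libraries were below the wild type libraries. CG10217 had 30.5 and 41.8 TPM in the mutant and 98.7 and 106 TPM in adult wild type (difference -1.49, block p 0.00162). In young wild type CG10217 had 32.5 and 42.5 TPM, close to the mutant (difference -0.06, block p 0.881). RanBP3 and Hrd3 were lower than in young wild type with the block (p 0.0137 and 0.0416) and did not pass without it. Without the block none of the 13 fell past the threshold, with it 12 of the 13 were lower, and with the 16-library block 5 were, tst, RanBP3, Hrd3, SdhD and CG10217.

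Lsd-1, a perilipin of lipid droplets, rose within this stretch. It had 37.5 and 21.0 TPM in the mutant and 4.15 and 6.04 TPM in adult wild type, a difference of 2.27 (SE 0.50, adjusted p 0.0281). In RNAi ovaries Lsd-1 had 19.1 and 9.71 TPM, and the mutant did not differ from them beyond the spread (adjusted p 0.555, block p 0.0778). The first genes outside the stretch had positive differences, CG10365 at 0.53 on one side and mbc at 0.71 on the other, and neither passed in either fit (block p 0.0736 and 0.0803). Breakpoints of the deficiency were not used here, so the stretch was not compared with them, and it was delimited after its values were seen. Beside tst and Lsd-1, 3 members of gene lists described below lie in the stretch: the respiratory chain gene SdhD and the proteasome subunit genes Rpn9 and Rpt5.

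**Figure D2:**
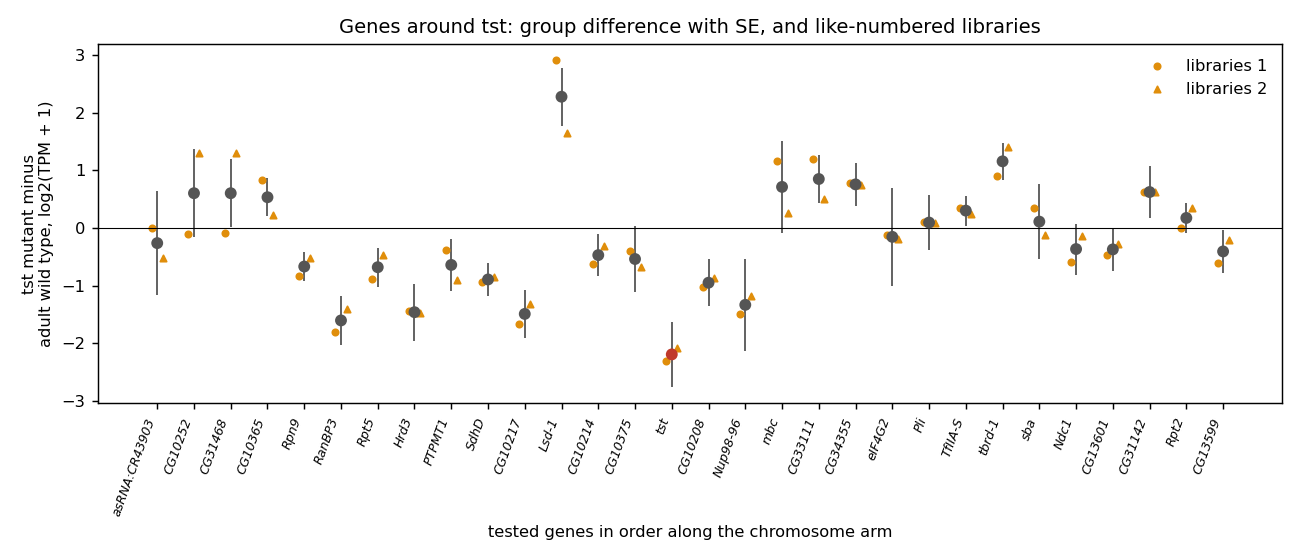
Difference in log2(TPM + 1) between tst mutant and adult wild type (y axis) for tst (red) and the tested genes around it in order along the arm, with 1 not shown. Large points are group differences with SE bars and small orange points are like-numbered libraries; from Rpn9 to Nup98-96 all differences shown except that of Lsd-1 are below 0.

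Chorion mRNAs were the group with the largest falls. All 11 major chorion genes tested were lower in both mutant libraries, 7 passed the test, all 11 passed with the block, 8 with the 16-library block, and their median difference was -3.19. Their summed level was 4673 and 8398 TPM in the mutant and 54319.9 and 42059.7 TPM in adult wild type. Cp36, a chorion protein gene of the X-chromosomal cluster, had 838 and 953 TPM in the mutant and 9280.1 and 6290.2 TPM in adult wild type (difference -3.09, SE 0.45, adjusted p 0.00468). Cp38, its neighbour in that cluster, had 1083 and 1147 TPM in the mutant and 12997 and 8914 TPM in adult wild type (difference -3.27, SE 0.58, adjusted p 0.00981). Both mutant libraries were close to each other and well below both wild type libraries for either gene. Cp16 and Cp19, of the second cluster on the third chromosome, fell by 3.64 (Cp16) and fell by 4.08 (Cp19), and Cp19 had the largest fall of all genes named here, with 311 and 317 TPM in the mutant and 6088 and 4659 TPM in adult wild type. Cp7Fa, Cp7Fb and Femcoat, another eggshell gene, also fell. No chorion gene passed without tst mutant 1 or without adult wild type 1, 2 fell without adult wild type 2 and 6 without tst mutant 2, with medians between -3.46 and -2.78. In such families reads from near-identical copies can be split unevenly.

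Chorion mRNAs of the mutant were not at the level of young ovaries, in which late egg chambers have yet to form. Cp36 had 5.73 and 10.9 TPM in young wild type, and the mutant was higher (difference 6.64, adjusted p 5.75e-06). Of the 11 chorion genes, 10 were higher in the mutant than in young wild type, where 2.74 percent of all genes tested were higher and 1.44 percent lower. In tst RNAi ovaries Cp36 had 5700.5 and 3701 TPM, and there the mutant was lower (difference -2.36, SE 0.45, adjusted p 0.0313). Cp36 was the 1 chorion gene of 11 that passed as lower in the mutant than in RNAi ovaries, against 0.226 percent of all genes tested. The list as a whole was also lower than in RNAi ovaries, with a median difference of -2.36. Its summed level in RNAi ovaries was 37470 and 19554 TPM. These contrasts use the same mutant libraries as the comparison with adult wild type.

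Some genes of the vitelline membrane and of eggshell crosslinking fell too. Of 21 tested, 6 fell, none rose, 18 were lower with the block, 7 with the 16-library block, and the median difference was -1.81. Vm32E, a structural protein of the vitelline membrane, had 293 and 242 TPM in the mutant and 2148 and 1902 TPM in adult wild type (difference -2.92, SE 0.48, adjusted p 0.00787). It was lower in the mutant than in tst RNAi ovaries as well, which had 1469 and 1678 TPM (adjusted p 0.03). CG31926 had 2.52 and 9.94 TPM in the mutant and 69.6 and 103 TPM in adult wild type (difference -3.79, adjusted p 0.00645), with tst mutant 1 the lowest library. The genes yellow-g and yellow-g2, needed to make the eggshell rigid, and CG13083 and CG13084 completed the 6 falls, between 2.62 and 3.53 in size. In the list, 7 genes fell without tst mutant 2, and none without any of the other 3 libraries. Outside the lists CG13113, CG6508, CG18088 and CG1077 were among the 12 largest falls, and CG13113 was lower also than in RNAi ovaries (adjusted p 0.0334).

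Yolk genes did not pass. Of 5 tested none rose or fell, none had an unadjusted p under 0.05, and the median difference was -0.20. The yolk protein receptor gene yl, which acts in the oocyte, had 289 and 449.6 TPM in the mutant and 1163 and 732 TPM in adult wild type. It was lower with the block (p 0.00853), and did not pass without it (p 0.293) or with the 16-library block (p 0.168).

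Few maternal mRNAs passed the test without the block. All 22 genes of egg activation and the meiotic cell cycle had negative differences with a median of -1.38, of which 1 fell, 20 were lower with the block and 5 with the 16-library block. Against young wild type none of the 22 passed in the fit without a block, and the median difference was -0.02. The gene that fell, alphaTub67C, encodes the maternal alpha tubulin of egg and embryo, and it had 215 and 411 TPM in the mutant and 958 and 829.5 TPM in adult wild type (difference -1.58, SE 0.35, adjusted p 0.0281). The subunits of the PNG kinase, which sets off translation at egg activation, did not pass without a block. Of these gnu had 123 and 309 TPM in the mutant and 542 and 614 TPM in adult wild type (block p 0.00621), and png and plu had block p values of 0.00281 and 0.0178. Of the 3 genes, gnu and png were lower with the 16-library block and plu did not pass (p 0.061). The Polo inhibitor gene mtrm had 135 and 335 TPM in the mutant and 766 and 762 TPM in adult wild type (block p 0.00619). Both gnu and mtrm had mutant libraries far from each other, with library 1 the lower, and still below wild type.

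Among 27 genes of the maternal body axes and germ plasm, 1 fell, none rose, and 15 were lower and 2 higher with the block, with a median of -0.86. Those lower with the 16-library block numbered 3, and none was higher. The gene that fell was pgc, which silences transcription in the first germ cells of the embryo. It had 62.8 and 167 TPM in the mutant and 354 and 369.7 TPM in adult wild type (difference -1.81, SE 0.43, adjusted p 0.0378). The anterior determinant bcd had 14.6 and 45.5 TPM in the mutant and 71.3 and 98.7 TPM in adult wild type (block p 0.00412). The mRNA localization gene exu had 91.6 and 234 TPM in the mutant and 525 and 522 TPM in adult wild type (block p 0.00226). Neither passed without a block, where p was 0.161 for bcd and 0.112 for exu, and both were lower with the 16-library block (p 0.043 and 0.0338). Against RNAi ovaries no gene of the list passed in the fit without a block, and the median difference was -0.56. Against young wild type 2 were higher and none lower in that fit, beside 2.74 and 1.44 percent of all genes, and the median difference was 0.06. The 2 higher than in adult wild type with the block were grk, the ligand that sets the dorsal side, and wbl, of the dorsoventral pathway.

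DNA replication genes mostly had lower levels, which passed with the block over 8 libraries and in no other fit. Of 29 tested, 28 had negative differences with a median of -0.68, none passed in limma without the block, 3 were lower at an unadjusted p under 0.05, and 14 were lower with the block. None of the 29 passed with the 16-library block. Against young wild type none passed in the fit without a block, and the median difference was 0.08. Mcm3, a subunit of the replicative helicase, had 65.8 and 71.7 TPM in the mutant and 144 and 120 TPM in adult wild type (block p 0.00542). CycE, the cyclin that drives entry into S phase, had 37.6 and 60.3 TPM in the mutant and 139 and 118 TPM in adult wild type (difference -1.41, SE 0.72, block p 0.00693). In both genes the mutant libraries were below the wild type libraries. Orc2, Orc5 and Cdc6, which load the helicase, and RnrL, of nucleotide synthesis, were lower with the block by 0.76 to 1.11 on the log2 scale.

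**Figure D3:**
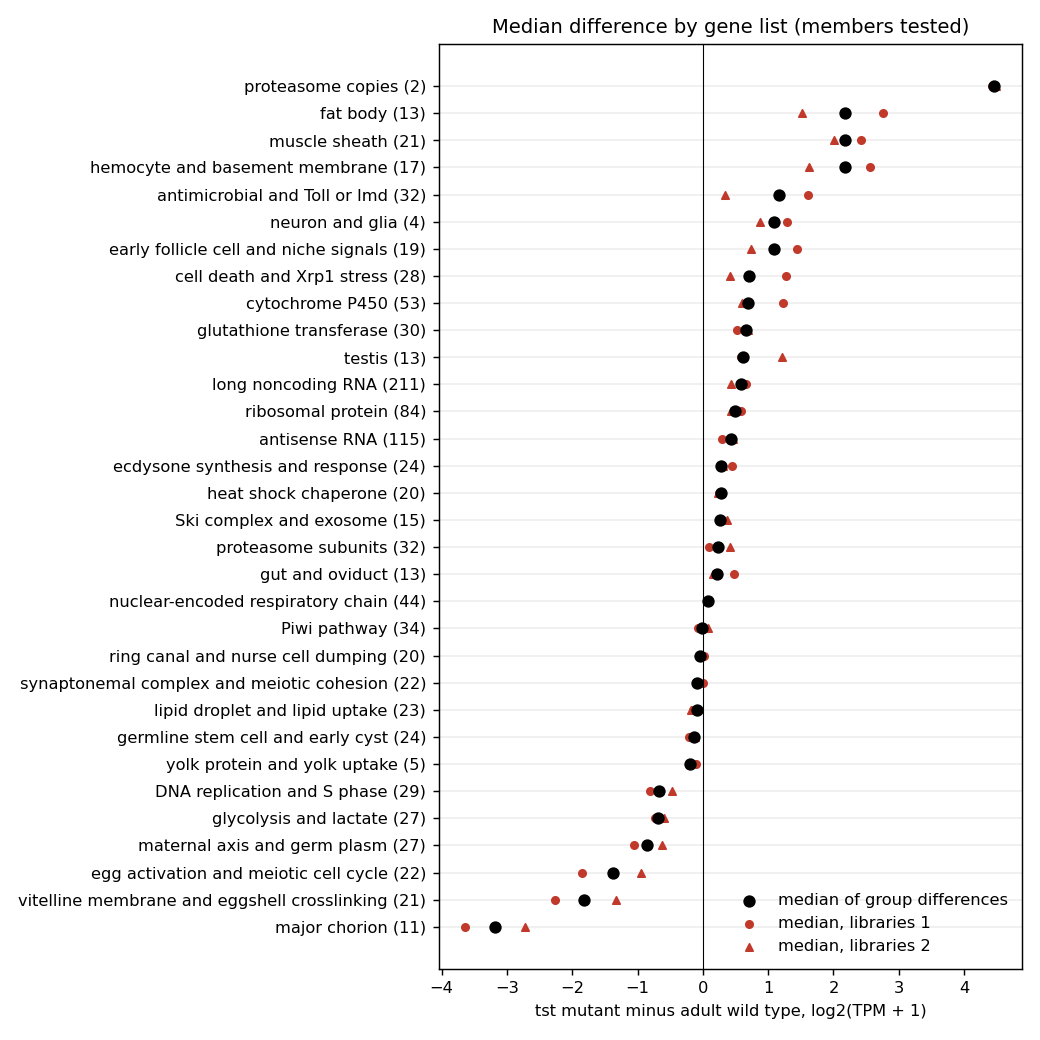
Median difference in log2(TPM + 1) between tst mutant and adult wild type (x axis) for each gene list (y axis, number of members tested in parentheses). Black points are medians of group differences and red points medians within like-numbered libraries; chorion, vitelline membrane and egg activation lists lie lowest, and muscle, hemocyte and fat body markers lie highest after the 2 proteasome gene copies.

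Genes of the early germline had differences in both directions. Of 24 stem cell and early cyst genes tested, 1 rose, none fell, and 7 were higher and 9 lower with the block, with a median of -0.13. With the 16-library block 2 were higher and none lower, and with quantile normalization none passed. CG15930, listed by RefSeq also as Tdrd5l, rose, with 4.23 and 11.1 TPM in the mutant and 0.411 and 0.620 TPM in adult wild type (difference 2.39, SE 0.55, adjusted p 0.0324). RpS19b, a copy of a ribosomal protein gene used in early germ cells, had 17.0 and 15.5 TPM in the mutant and 2.67 and 1.25 TPM in adult wild type (p 6.16e-04 with the block, 0.0529 with the 16-library block). The posterior determinant nos, which also keeps germline stem cells, had 55.7 and 233 TPM in the mutant and 320.4 and 479 TPM in adult wild type (p 0.00699 with the block, 0.113 with the 16-library block), so it stood lower where the other two stood higher.

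Differences of both signs were also found among meiotic genes. Of 22 synaptonemal complex and cohesion genes, 2 rose and none fell, with 5 higher and 2 lower with the block and a median of -0.09. With the 16-library block 3 were higher and none lower, and with quantile normalization none passed. The gene corolla, of the central region of the synaptonemal complex, had 14.1 and 13.6 TPM in the mutant and 3.24 and 3.32 TPM in adult wild type (difference 1.80, SE 0.42, adjusted p 0.0352). The cohesion gene sunn had 3.23 and 2.90 TPM in the mutant and 0.438 and 0.361 TPM in adult wild type (adjusted p 0.0411). For both genes the groups were far apart and their libraries close. Of the 20 ring canal and nurse cell actin genes none passed in limma, none had an unadjusted p under 0.05, and with the block sqh, zip and cher, for myosin and filamin, were higher and sn, kel and qua, for actin bundling and ring canals, were lower. None of these 6 passed with the 16-library block.

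In the Piwi pathway, which silences transposons, 1 of 34 genes rose and 1 fell. The gene moon, needed to transcribe germline piRNA clusters, fell, with 14.5 and 21.7 TPM in the mutant and 60.6 and 58.5 TPM in adult wild type (difference -1.69, SE 0.32, adjusted p 0.0135). It was lower than in tst RNAi ovaries as well, which had 69.0 and 62.5 TPM (adjusted p 0.0193). The gene fs(1)Yb, of somatic piRNA production, rose, with 38.0 and 14.5 TPM in the mutant and 3.56 and 1.93 TPM in adult wild type (difference 2.75, adjusted p 0.0195), and its mutant libraries differed from each other more than the wild type libraries did.

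Genes of early follicle cells and niche signals had mostly positive differences. Of 19 tested 1 rose, none fell, 10 were higher and 1 lower with the block, 2 were higher with the 16-library block, and the median was 1.08. With quantile normalization the median was 0.50 and 11 of the 19 differences were positive, beside 15 without it. Without tst mutant 2, 6 of the genes rose. The gene that rose was upd1, the ligand of the JAK-STAT pathway made by polar cells and niche. It had 5.63 and 2.60 TPM in the mutant and 0.545 and 0.507 TPM in adult wild type (difference 1.68, SE 0.36, adjusted p 0.0258). It was also higher than in RNAi ovaries, at 0.273 and 0.619 TPM (adjusted p 0.0421). Against young wild type none of the 19 genes passed in the fit without a block, and the median difference was -0.83. The transcription factor gene eya had 121 and 38.6 TPM in the mutant and 13.1 and 7.21 TPM in adult wild type, with tst mutant 1 the highest (adjusted p 0.0504, block p 0.00174). Of 24 ecdysone genes none passed in limma without the block, 4 were higher and 1 lower at an unadjusted p under 0.05, and 7 were higher and 3 lower with the block. Their median was 0.28, and -0.15 with quantile normalization, so no direction is given for the group. Cyp18a1, which inactivates ecdysone, and the synthesis genes nvd and sro were among the 7, and with the 16-library block Cyp18a1 and nvd were higher and 1 gene of the list was lower. Cyp18a1 had 90.3 and 63.1 TPM in the mutant and 23.4 and 19.6 TPM in adult wild type (adjusted p 0.0516, block p 0.00268).

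Several glycolytic enzymes fell while lactate dehydrogenase rose. Of 27 genes tested 19 had negative differences, 3 fell and 1 rose, 15 were lower and 4 higher with the block, 6 were lower and 1 higher with the 16-library block, and the median was -0.69. Gapdh1, for glyceraldehyde phosphate dehydrogenase, had 494 and 481 TPM in the mutant and 1115 and 842 TPM in adult wild type (difference -0.99, SE 0.25, adjusted p 0.0461). Tpi, for triose phosphate isomerase, and Pglym78, for phosphoglycerate mutase, fell by 1.45 and 1.31. With equal library medians or without any 1 of the 4 libraries these 3 genes had negative differences that did not pass. Ldh had 43.2 and 30.1 TPM in the mutant and 1.28 and 1.33 TPM in adult wild type (difference 4.01, SE 0.39, adjusted p 6.12e-04). Both mutant libraries were far above both wild type libraries, which were alike. It was higher also than in tst RNAi ovaries, at 6.84 and 6.37 TPM (adjusted p 0.019), and than in young wild type, at 2.00 and 1.83 TPM (adjusted p 1.59e-04). No other gene of the list passed against young wild type in the fit without a block, and the median difference was -0.18.

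The nuclear genes of the respiratory chain showed little difference. None of 44 passed in limma, 1 was lower at an unadjusted p under 0.05, the median was 0.08, and with the block Cyt-c-p was higher and SdhD, one of the genes of the stretch around tst, was lower. Of these 2, SdhD alone passed with the 16-library block.

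**Figure D4:**
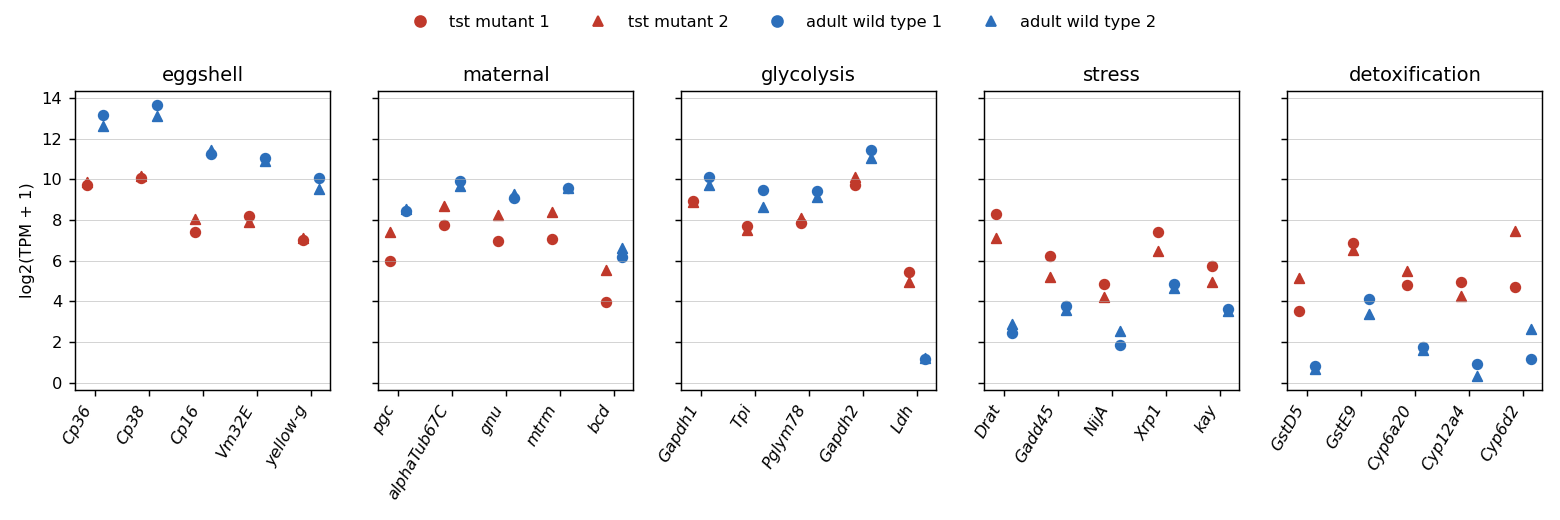
Level in log2(TPM + 1) (y axis) of named genes in tst mutant 1 and 2 (red circle and triangle) and adult wild type 1 and 2 (blue circle and triangle). Eggshell, maternal and most glycolytic genes lie lower in the mutant, and Ldh, stress and detoxification genes lie higher, with the groups apart for every gene shown.

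The gene with the largest rise was Rpt6R, a copy of the proteasome ATPase gene Rpt6 known for expression in testis. It had 75.2 and 62.0 TPM in the mutant and 0.589 and 0.693 TPM in adult wild type (difference 5.40, SE 0.51, adjusted p 6.12e-04). It was higher than in RNAi ovaries, at 2.26 and 1.45 TPM (adjusted p 0.00138), and than in young wild type, at 0.594 and 0.492 TPM. Rpt3R, the like copy of Rpt3, had 16.4 and 22.7 TPM in the mutant and 0.800 and 0.747 TPM in adult wild type (difference 3.52, adjusted p 0.00135). For both genes the mutant libraries were alike and stood far above the wild type libraries. Of the 2 copies Rpt6R alone passed against RNAi ovaries in the fit without a block. Summed over both copies, the level was 14.2 and 9.01 TPM in RNAi ovaries, 3.82 and 4.90 TPM in young wild type and 1.39 and 1.44 TPM in adult wild type. None of the 32 proteasome subunit genes passed in limma, 1 was higher and 1 lower at an unadjusted p under 0.05, and their median was 0.24. With the block Prosbeta7 and Pomp were higher, and Rpn9 and Rpt5, both in the stretch around tst, were lower, and with the 16-library block none of the 4 passed. Rpt6R and Rpt3R were the only members of 13 testis markers tested that rose.

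Genes of cell death and stress had mostly positive differences. Of 28 tested 3 rose, none fell, 13 were higher with the block, 4 with the 16-library block, and the median was 0.71, with 25 differences positive. With quantile normalization the median was 0.43. Drat, which encodes a protein with an alcohol dehydrogenase domain, had 317 and 137 TPM in the mutant and 4.36 and 6.43 TPM in adult wild type (difference 5.06, SE 0.77, adjusted p 0.00575). Gadd45, a stress response gene, had 75.2 and 36.1 TPM in the mutant and 12.7 and 10.8 TPM in adult wild type (difference 2.07, adjusted p 0.0275). In both genes tst mutant 1 stood above tst mutant 2, and both stood above wild type. Without tst mutant 1 or adult wild type 1 no gene of the list passed, 1 rose without adult wild type 2, and 5 rose without tst mutant 2. The ninjurin gene NijA was the third that rose. None of the 28 genes, Drat included, passed against RNAi ovaries in the fit without a block, and the median difference from them was 0.72. Xrp1, a transcription factor of the ribosome stress response, had 169 and 88.6 TPM in the mutant and 28.1 and 24.0 TPM in adult wild type (difference 2.19, SE 0.71, adjusted p 0.107, block p 4.46e-04), and kay, for the Fos subunit of AP-1, had block p 0.00264. Only kay of these 2 passed with the 16-library block, where Xrp1 had a p of 0.0758.

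Several detoxification enzymes rose. Among 53 cytochrome P450 genes tested 11 rose and none fell, with the block 20 were higher and 3 lower of 50 tested, with the 16-library block 16 and 1, and the median was 0.70. Summed over the 55 listed genes, the level was 1127 and 1095 TPM in the mutant and 995 and 1131 TPM in adult wild type, so the total differed little. Cyp12a4 had 30.1 and 18.5 TPM in the mutant and 0.912 and 0.246 TPM in adult wild type (difference 3.99, SE 0.47, adjusted p 0.00135). Cyp6a20 had 27.1 and 44.1 TPM in the mutant and 2.32 and 2.04 TPM in adult wild type (difference 3.49, adjusted p 0.00385). Cyp6d2 had 25.5 and 178 TPM in the mutant and 1.23 and 5.31 TPM in adult wild type (difference 4.20, adjusted p 0.0158), and its 2 mutant libraries were further apart than those of the other named P450 genes. With equal library medians 9 P450 genes rose and 3 fell, and with quantile normalization 5 rose and 3 fell and the median was 0.29. There were 6 rises when tst mutant 1 was left out, 15 for tst mutant 2, 2 for adult wild type 1 and 4 for adult wild type 2. Cyp309a1 and Cyp12c1 were the 2 P450 genes higher than in RNAi ovaries (adjusted p 0.0293 and 0.0194), where 0.801 percent of all genes were.

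Among 30 glutathione transferase genes tested 4 rose and none fell, 14 were higher and 1 lower with the block, 9 higher and none lower with the 16-library block, and the median was 0.66. Their summed level was 3346 and 3442 TPM in the mutant and 3287 and 3012 TPM in adult wild type, a small difference in total. GstE9 had 117 and 90.8 TPM in the mutant and 16.4 and 9.42 TPM in adult wild type (difference 2.95, SE 0.68, adjusted p 0.0343). GstD5 had 10.7 and 35.0 TPM in the mutant and 0.737 and 0.596 TPM in adult wild type (difference 3.62, adjusted p 0.0144). GstE5 and GstD10 were the other 2 that rose. A single gene of the list rose with equal library medians, with quantile normalization or without tst mutant 1, none without either adult wild type library, and 6 without tst mutant 2. Mutant libraries stood above wild type libraries for all 4, and none passed against RNAi ovaries in the fit without a block. These enzymes are also made in fat body and gut, whose markers are given below, and the part of those tissues in the rises was not tested.

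Immune genes had mostly positive differences, few of which passed without a replicate block. Of 32 genes of antimicrobial peptides and the Toll and Imd pathways none passed in the limma fit without a block, 12 were higher and none lower at an unadjusted p under 0.05, 15 were higher and 4 lower with the block, and the median was 1.17, with 24 differences positive and 8 negative. With the 16-library block 6 were higher and none lower. Without a block 1 gene rose with equal library medians, 1 with a pseudocount of 5 and 2 without tst mutant 2, and with quantile normalization the median was 0.45. The antifungal peptide gene Drs had 395 and 445 TPM in the mutant and 26.4 and 3.45 TPM in adult wild type (difference 5.25, SE 1.67, adjusted p 0.0997, block p 0.00247). Mtk, another antimicrobial peptide, had 4.16 and 7.17 TPM in the mutant and was listed at 0 in both adult wild type libraries. Dif, a transcription factor of the Toll pathway, had 18.7 and 9.27 TPM in the mutant and 1.89 and 1.81 TPM in adult wild type (block p 0.00212). Groups did not overlap for these 3 genes, although Drs differed widely between the wild type libraries.

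The heat shock list was mixed. Of 20 chaperone genes tested 1 fell and none rose, with 4 higher and 4 lower with the block and a median of 0.27. With the 16-library block 1 was lower and none higher, and with equal library medians or quantile normalization none passed. Hsp26, a small heat shock protein also loaded into eggs, fell, with 828 and 1104 TPM in the mutant and 3740 and 3169 TPM in adult wild type (difference -1.85, SE 0.46, adjusted p 0.0438). Hsp23, of the same family, had 353 and 313 TPM in the mutant and 149.7 and 43.8 TPM in adult wild type, higher with the block (p 0.0118) and not past the threshold with the 16-library block (p 0.13).

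All 84 ribosomal protein genes had positive differences, with a median of 0.50 beside 0.02 over all genes, and 82 of them did under quantile normalization. None passed in limma without the block, 4 were higher at an unadjusted p under 0.05, and 12 were higher with the block. The copy RpS10a alone passed with the 16-library block. Their summed level was 366708 and 323992 TPM in the mutant and 247760 and 238801 TPM in adult wild type. RpL3 had 4551 and 3504 TPM in the mutant and 2715 and 2368 TPM in adult wild type (p 0.0337 with the block, 0.151 with the 16-library block). RpS10a had 12.7 and 14.0 TPM in the mutant and 0.256 and 0.552 TPM in adult wild type (difference 3.36, adjusted p 0.0784, block p 7.97e-04). Since TPM are shares of a total, the lower eggshell sums leave more of the total to other genes, and the part of this in the ribosomal values was not tested.

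In lipid storage and uptake 2 of 23 genes rose and none fell. Lip4, a lipase gene, had 193 and 109 TPM in the mutant and 12.5 and 17.5 TPM in adult wild type (difference 3.21, SE 0.50, adjusted p 0.00627), and it was higher than in RNAi ovaries, at 20.4 and 23.3 TPM (adjusted p 0.0293). The other was Lsd-1. With the block 5 were higher and 5 lower, and with the 16-library block 2 were higher and 1 lower. No gene of the list rose without tst mutant 1 or adult wild type 1, 1 rose without adult wild type 2, and 3 without tst mutant 2. Jabba, whose protein holds histones on lipid droplets of the egg, had 175 and 312 TPM in the mutant and 769.6 and 707 TPM in adult wild type (block p 0.00181).

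Some markers of other tissues rose in the mutant. Of 21 markers of the muscle sheath around the ovary 9 rose, none fell, 19 were higher with the block and 11 with the 16-library block, with a median of 2.18 and a summed level of 3036 and 1754 TPM in the mutant, against 652 and 502 TPM in adult wild type. TpnC73F, for troponin C, had 201 and 148 TPM in the mutant and 21.0 and 21.3 TPM in adult wild type (difference 2.97, SE 0.45, adjusted p 0.00575), and up, for troponin T, had 261 and 138 TPM in the mutant and 42.6 and 32.0 TPM in adult wild type (adjusted p 0.00816). In both, tst mutant 1 was the highest library. In all, 11 of the markers rose without tst mutant 2, and none without any of the other 3 libraries. None of the 21 markers passed against RNAi ovaries in the fit without a block. Their summed level was 3447 and 3276 TPM in RNAi ovaries and 6024 and 7800 TPM in young wild type. Adult wild type thus had the lowest sums of the 4 groups, and the mutant sums were below those of the RNAi and young ovaries.

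Of 17 markers of hemocytes and basement membrane 3 rose, 14 were higher with the block and 8 with the 16-library block, with a median of 2.17 and summed levels of 2279.5 and 1232 TPM in the mutant and 489 and 484 TPM in adult wild type. SPARC, a basement membrane protein, had 351 and 124 TPM in the mutant and 41.1 and 30.0 TPM in adult wild type (difference 2.54, adjusted p 0.0329), and Pxn and Ppn, for proteins of the same matrix, rose too. In the list, 7 genes rose without tst mutant 2, and none without any of the other 3 libraries. The summed level of the list was 955 and 794 TPM in RNAi ovaries and 2574 and 3320 TPM in young wild type, so adult wild type had the lowest sums here too. The hemocyte gene Hml had 5.95 and 2.26 TPM in the mutant and 0.132 and 0.106 TPM in adult wild type, and NimC1 and eater were listed at 0 in adult wild type 1. Of 13 fat body markers 1 rose, 11 were higher and 1 lower with the block, and 5 were higher and none lower with the 16-library block, with summed levels of 746 and 441 TPM in the mutant and 90.8 and 94.8 TPM in adult wild type. Fat body sums were 454 and 212 TPM in RNAi ovaries and 345 and 228 TPM in young wild type, below the mutant library of the same number and above adult wild type. The marker that rose was Arc1, which is also known for expression in neurons. Without tst mutant 2, 6 fat body markers rose, and none without adult wild type 1. Fbp2, a fat body protein gene, had 19.2 and 1.88 TPM in the mutant and 0 and 0.0775 TPM in adult wild type, so tst mutant 1 stood far above tst mutant 2. In all 3 marker lists the sum was higher in tst mutant 1 than in tst mutant 2, and the part of attached tissue in the immune, lipid and detoxification values was not tested. None of 13 gut and oviduct markers passed in limma without a block, with 2 higher and 1 lower at an unadjusted p under 0.05. With the block 3 were higher and 1 lower of 10 tested, and with the 16-library block 1 was higher and 1 lower. Of 4 neuron and glia markers tested Syt4 fell and none rose without a block, and the median was 1.08. With the block 3 of these were higher and 1 lower, and with the 16-library block none was higher and 1 lower.

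**Figure D5:**
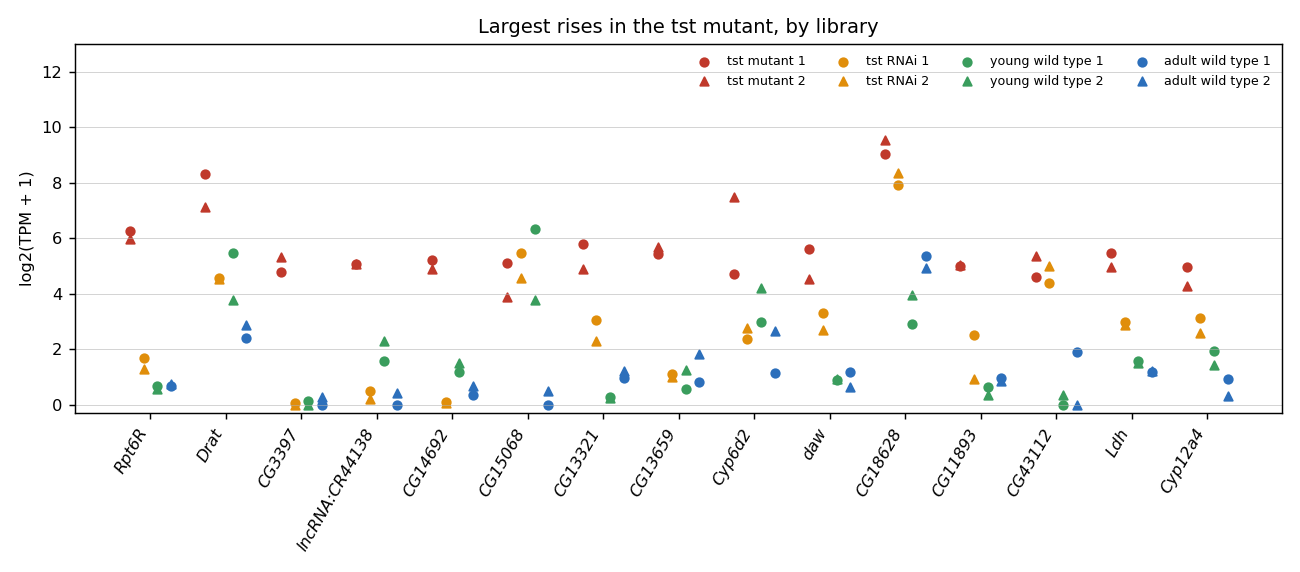
Level in log2(TPM + 1) (y axis) of the 15 genes with the largest rises in tst mutant, tst RNAi, young wild type and adult wild type libraries (circle for library 1, triangle for library 2). Rpt6R, CG3397, lncRNA:CR44138, CG14692, CG13659 and CG11893 lie far above all other groups in the mutant, while CG18628, CG15068 and CG43112 have high levels in RNAi ovaries as well.

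The remaining largest rises included genes with no assigned role here. CG14692 had 36.0 and 28.5 TPM in the mutant and 0.268 and 0.597 TPM in adult wild type (difference 4.54, SE 0.36, adjusted p 1.88e-04). CG3397 had 26.8 and 39.4 TPM in the mutant and 0 and 0.211 TPM in adult wild type (difference 4.93, adjusted p 8.92e-04). CG13659, CG11893 and CG13321 rose by 4.23, 4.10 and 4.26. All of these were also higher than in RNAi ovaries, with adjusted p values of 8.54e-05 for CG14692, 9.47e-04 for CG3397, 7.30e-04 for CG13659, 0.00855 for CG11893 and 0.0293 for CG13321. By contrast CG18628 had 529.6 and 745 TPM in the mutant, 244 and 323 TPM in RNAi ovaries and 39.9 and 29.7 TPM in adult wild type, and the mutant and RNAi groups did not differ beyond the spread (difference 1.16, SE 0.97, adjusted p 0.82). The activin-like ligand gene daw rose by 4.16, with 48.5 and 22.3 TPM in the mutant and 1.30 and 0.562 TPM in adult wild type.

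Of 211 long noncoding RNA genes tested 17 rose and 5 fell. Leaving out 1 library gave 3 to 16 rises and 1 to 3 falls, the fewest rises without adult wild type 1. Their median was 0.59, and -0.12 under quantile normalization, so no direction is given for the group. The RNA lncRNA:CR44138 had 32.9 and 32.8 TPM in the mutant and 0 and 0.339 TPM in adult wild type (difference 4.87, SE 0.40, adjusted p 1.88e-04). In the other direction lncRNA:CR46350 had 0.122 and 0.0720 TPM in the mutant and 6.30 and 9.09 TPM in adult wild type (difference -2.97, adjusted p 0.00198). Each RNA differed from RNAi ovaries in the direction in which it differed from adult wild type (adjusted p 1.34e-04 and 0.0115). Of 115 antisense RNA genes 1 rose, while with quantile normalization none rose and 3 fell, and these values are uncertain because library 1 of each group has no strand setting in the labels.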

How the data were processed

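Ovary poly(A) RNA was sequenced from libraries made with a directional kit, per the labels' protocols. Per the submitters' processing notes, the tools were HISAT2 2.0.5 and featureCounts 1.5.1 and the build was dm6. Per the file headers, the authors deposited log2 TPM, and each column summed to the same total over 9251 genes after conversion from log2(TPM + 0.5). They were turned into log2(TPM + 1).

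Libraries were grouped by their labels. Genes that reached 1 TPM in 2 of the 16 total mRNA libraries or more (8 groups) entered 1 limma fit (limma 3.58.1, R 4.3.3) without a block, with a variance trend and Benjamini-Hochberg adjustment at 0.05. The fit was tested on simulated data. Alternatives are given at the end. Deviations of like-numbered libraries from their group means correlated at 0.613 to 0.762 in the 6 pairs of the 4 groups, so the numbers were taken to pair the libraries and blocked values are printed. With the other 4 groups their deviations correlated at -0.0727 to 0.341, and a block over all 16 libraries is printed beside.

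Members and lists were chosen with earlier results of these data known. Genes were named by rule: tst, the 15 largest rises and 12 largest falls among called genes with libraries apart and at least 10 TPM in the higher group, up to 6 members of each list, and genes around tst. The genes osk, grk, wbl, vas, Hml and eater, the extent of the stretch around tst, counts per chromosome arm and genes above 5 TPM in mutants alone were chosen after their values were seen. Promoter motifs were not analysed, and 1 gene near tst is not reported here.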

Additional observations from a re-analysis of the deposited data

How the results depend on the processing

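Of the 75 named genes that passed, every one present in a fit had the same direction under each alternative tried, and between 16 (without adult wild type 1) and 75 (both blocks) still passed. Genes called higher and lower were 526 and 120 with the replicate block over 16 libraries, 1616 and 1236 with the replicate block over 8 libraries, 55 and 27 with the 4 compared libraries alone, 203 and 46 with at least 5 TPM in 2 libraries, and 170 and 161 with quantile normalization. Leaving out 1 library gave 25 to 503 higher and 4 to 76 lower genes, on the assumption that the lone library varies like the other groups. Without a block, 1652 genes had an unadjusted p under 0.05.

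The tst difference passed the threshold at -2.06 with equal library medians, -2.19 without a variance trend and with either replicate block, -2.26 with a pseudocount of 0.5 and -2.65 with quantile normalization, and was -2.39 to -1.996 when 1 library was left out. Genes under the naming rule, whether called against adult wild type or not, that differed from tst RNAi numbered 21, and 124 with the replicate block over 8 libraries, and those that differed from young wild type 49 and 97. With equal library medians, the median over all genes was 0.15, beside 0.02. The causes were not tested. Medians of the ecdysone, heat shock, gut, testis, long noncoding and antisense lists had the other sign with quantile normalization, and those of the meiotic, ring canal, lipid and Piwi lists, all near 0, with equal medians. CG10375 ranged from -1.26 to 0.19 when 1 library was left out. With 2 libraries a group and no read counts, small differences at low levels are the least certain.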

Other observations

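Several genes outside the lists, picked after their values were seen, also rose. MtnA, a metallothionein that binds metals, had 580.3 and 515 TPM in the mutant and 33.1 and 70.1 TPM in adult wild type (difference 3.48, SE 0.57, adjusted p 0.00731), and tst RNAi ovaries had 299.8 and 377 TPM. Ilp6, an insulin-like peptide gene, had 61.7 and 61.8 TPM in the mutant and 4.39 and 6.05 TPM in adult wild type (difference 3.35, SE 0.58, adjusted p 0.00902). It was higher than in tst RNAi ovaries, at 6.03 and 10.9 TPM (adjusted p 0.0453). The 2 mutant libraries were nearly equal for Ilp6. The receptor tyrosine kinase gene sev, known from the eye, had 43.1 and 20.6 TPM in the mutant and 1.74 and 1.60 TPM in adult wild type (adjusted p 0.00385), and it was higher than in RNAi ovaries as well (adjusted p 0.019). Pvf2, a growth factor gene of the PDGF and VEGF family, had 8.52 and 14.4 TPM in the mutant and 0.221 and 0.357 TPM in adult wild type (adjusted p 0.00287).

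There were 18 genes with at least 5 TPM in both mutant libraries and less in each of the other 14 total mRNA libraries. Of the 18, 9 lie on chromosome arm 3R, beside 2120 of all 8864 genes tested. Rpt6R and lncRNA:CR44138 are among these 9. The 18 were picked by these same values, so their p values against adult wild type add no separate support. The share of 3R among genes equally low in the other libraries was not counted. Not all of the 18 passed against adult wild type, as with CG14245 (adjusted p 0.107) and CG6830 (adjusted p 0.19). CG13658, also on 3R, had 10.3 and 10.3 TPM in the mutant and 0.290 and 1.06 TPM in adult wild type (difference 2.79, adjusted p 6.64e-04). Of 2120 genes tested on 3R, 101 rose, 4.76 percent, against 2.84 percent on 2L, 3.70 percent on 2R, 3.12 percent on 3L, 3.07 percent on X and 2.53 percent on 4. With the replicate block over 8 libraries 3R did not stand highest, with 18.02 percent of its genes higher, against 17.83 percent on 2L, 20.9 percent on 2R, 17.71 percent on 3L, 16.2 percent on X and 26.58 percent on 4. Against tst RNAi ovaries, in the fit without a block, 29 genes of 3R were higher in the mutant, 1.37 percent, and at most 0.765 percent of the genes of any other arm were. Arms were not counted against RNAi ovaries with a block. The difference between arms was not tested.

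Some genes followed the library number more than the group. Mcm7, a subunit of the replicative helicase, had 19.4 and 122 TPM in the mutant and 28.9 and 167 TPM in adult wild type, low in library 1 and high in library 2 of each. Cyp9c1 was listed at 0 in library 1 of both groups and had 41.5 TPM in tst mutant 2 and 6.32 TPM in adult wild type 2. Others were high in tst mutant 1 alone. GstE10 had 53.1 and 0.207 TPM in the mutant and 0.136 and 0 TPM in adult wild type, and AttC, an antibacterial peptide gene, had 21.8 and 1.09 TPM in the mutant and 0 and 0.741 TPM in adult wild type.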
